A study of Mus musculus with 24 samples.

Results

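Id1, Id2, Id3 and Id4 encode the inhibitor of DNA binding family of helix-loop-helix proteins, and their transcripts were followed through an RNA-seq comparison of sorted hippocampal cells. The members were taken by symbol, 4 of the 48321 gene symbols in the deposited count tables, and all 4 were among the 21477 genes that could be tested. The cells came from adult C57BL/6 mice that carried a tamoxifen-inducible Cre under Hes5 (Hes5::CreERT2) and a Cre-dependent GFP reporter (Rosa26R-CAG::GFP). The controls, called wild type (WT) here, carried this driver and reporter too and had an intact Notch2 gene (Notch2 wt/wt). The conditional knockout (CKO) animals carried the same driver and reporter with Notch2 flox/flox. Tamoxifen was given for 5 days to every animal, and GFP-positive cells were sorted 1 day later. Hes5 is a Notch target gene active in neural stem cells and other astroglial cells, so the reporter marks every cell type in which it is active. Each sample was RNA of a pool of animals, with 3 WT and 3 CKO pools. The labels do not say whether an animal contributed to more than 1 pool, so a p-value reflects pool-to-pool spread only, which may be technical. In the published study Id4 was examined as an effector of Notch2 in stem cell quiescence, and the comparison below asks how the 4 Id transcripts differed between the genotypes.

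Id proteins have a helix-loop-helix dimerisation domain but lack the basic region that contacts DNA. They bind E proteins (Tcf3, Tcf4 and Tcf12) and so keep proneural factors such as Neurod1 from forming dimers that bind the E-box, a short DNA element. Id genes are classic targets of BMP signalling through Smad proteins, are widely expressed in neural stem cells and astroglia, and are also prominent in endothelial cells, where Id1 and Id3 act in vessel growth. In the adult dentate gyrus Id4 is known for keeping stem cells quiescent.

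The members lie on different chromosomes, with positions on GRCm38 from GENCODE M21. Id1 lies on chromosome 2 (152736251 to 152737410, plus strand) and Id2 on chromosome 12 (25093799 to 25097140, minus strand). Id3 lies on chromosome 4 (136143497 to 136145755, plus strand) and Id4 on chromosome 13 (48261228 to 48266026, plus strand). No other annotated gene overlaps Id1, Id2 or Id3. Exons of 2 noncoding genes on the opposite strand, A330033J07Rik and Gm49291, overlap exons of Id4, and the libraries do not mark strand. Promoter letters were found for 3 of the 4 members in the RefSeq table (GRCm38.p6), for Id2, Id3 and Id4. The Id4 promoter is shown because Id4 is the member whose pools did not overlap between genotypes. It is the stretch of 250 bases that ends just before the RefSeq start, at chr13:48260866-48261115 on the plus strand. The capitals mark matches to 2 elements, the core of the Rbpj site (TGGGAA, here on the opposite strand) and a GC-rich Smad element (GGCGCC).

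Id4 promoter: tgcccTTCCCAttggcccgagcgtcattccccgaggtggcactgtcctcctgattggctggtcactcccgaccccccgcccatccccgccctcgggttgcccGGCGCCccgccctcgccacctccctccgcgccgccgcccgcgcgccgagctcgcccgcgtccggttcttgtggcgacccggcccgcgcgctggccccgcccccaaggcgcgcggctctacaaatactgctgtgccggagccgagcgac

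Rbpj is the DNA-binding partner of cleaved Notch receptors, and Smad proteins carry the BMP signal to DNA. Each motif was searched on both strands of the 250 bases before the RefSeq start. For Id2 and Id3 these bases lie inside the GENCODE span given above, and for Id4 they end before it. TGGGAA was found in Id4 and in neither Id2 nor Id3, and 21.6% of 32851 promoters hold it. GGCGCC, which reads the same on either strand and is held by 9.59% of promoters, was found in Id4 and Id2. The Id2 match lies 231 to 226 bases before the RefSeq start, inside the GENCODE span of Id2. It is shown for comparison on the gene's minus strand, with the matched letters (chr12:25096318-25096323) in capitals.

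Id2 match: ggccccctgGGCGCCcagcgcaca

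The E-box, CANNTG, was found in Id2 only among these 3 genes, and 66.2% of promoters hold it. The N-box, CACNAG, to which Hes repressors bind, was found in Id4 only, and 36.7% of promoters hold it. In Id4 the GC content of the 250 bases was 75.6%, against 62.8% in Id2 and in Id3 and a median of 52.4% over all promoters. A lower GC content than that of Id4 was found in 96.4% of promoters. The shares of promoters with a motif were not matched for GC content. They do not give how often GGCGCC occurs in promoters as rich in GC as Id4 or Id2. Each is a match of letters only, and binding was not measured.

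Depth and sample quality bear on these values. Reads in genes numbered 40366579 to 53984963 per pool, and 1 read equalled 0.0175 to 0.0265 CPM (the usual read count scaled to a common library size, with library sizes adjusted by TMM). Each pool was made into 2 libraries, named rep1 and rep2 in the titles and library 1 and library 2 here, and each library was run on 2 lanes. The 2 libraries of a pool differed beyond sampling noise in all 6 pools (chi-square per degree of freedom 70.7 to 351, highest in WT pool 1). WT pool 3 stood out in genes found in 1 library and nearly absent from the other. In that pool 364 of the 8669 genes at 10 CPM or more in library 1 were below 0.2 CPM in library 2 (4.199%), and 499 of 9640 the other way round (5.18%). In the other pools these shares were 0.0378% to 0.731%. The sample descriptions give each pool a tag ending in K, the smallest of which is that of WT pool 3, and do not say what it stands for. Notch2, the targeted gene, was at 99.3, 146 and 303 CPM in the WT pools and at 65.3, 116 and 121 CPM in the CKO pools, so that the genotypes overlapped. A gene-level count includes exons that remain after recombination, and it checks the labels only in part. Markers of mature astrocytes summed to 24112 to 37378 CPM per pool and markers of oligodendrocytes to 2431 to 6608 CPM, so the Id levels describe the sorted mixture. In such bulk samples, fewer cells of a type and less RNA per cell cannot be told apart.

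Id2 was the most abundant member when levels were divided by exon length. In CPM per kilobase of annotated exon, Id2 ranged from 212 to 300.5 over the 6 pools, with a median of 284. Id3 ranged from 70.5 to 151 (median 118), Id1 from 10.8 to 46.0 (median 24.5) and Id4 from 11.5 to 21.6 (median 13.7). The order Id2 above Id3 above Id1 held in 6 of 6 pools, and the ranges of Id2, Id3 and Id1 did not touch. Id2 exceeded Id3 by 1.89 to 3.002 times within a pool, and Id3 exceeded Id1 by 3.28 to 12.05 times. Id1 and Id4 were neighbours that did not differ beyond their spread, with Id1 above Id4 in 4 of 6 pools and a ratio of 0.50 to 2.45. Id2 made up 56.9% to 69.4% of the length-scaled Id total, Id3 23.1% to 30.2%, Id1 2.42% to 9.20% and Id4 2.69% to 4.83%. Id4 had the smallest median share of the length-scaled total, 3.55%. The lowest Id1 level, share and ratio to Id4 were those of WT pool 3, whose library 2 held 2 Id1 reads.

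**Figure D1:**
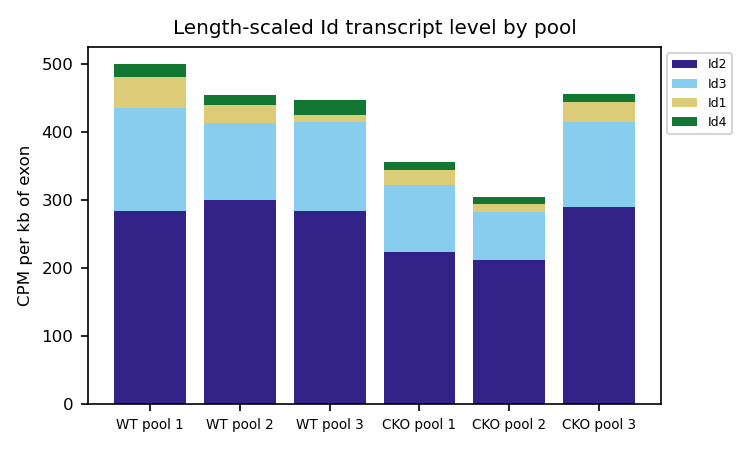
Length-scaled level (CPM per kilobase of exon, linear axis) of the 4 Id genes, stacked for each of the 6 pools. Id2 and Id3 fill most of each bar, and the bars of CKO pools 1 and 2 are the shortest while that of CKO pool 3 (456) lies within the WT range of 446 to 499.7.

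Reads of the 4 genes summed to 1021 to 1088 CPM in the WT pools and to 699 to 1011 CPM in the CKO pools, not scaled for length. CKO pool 2 had the lowest sum. That pool also had the largest share of reads outside genes, 35.3% against 16.0% to 25.8% in the other pools. On the length-scaled sum the genotypes overlapped, at 446 to 499.7 against 305 to 456 CPM per kilobase.

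The spread between pools differed greatly among the members. Within a genotype the SD of log2 CPM was 0.17 for Id2 and 0.18 for Id4, and only 4.80% and 5.55% of genes at a mean log2 CPM of at least 4 had a smaller one. For Id3 it was 0.33, and the median of those genes was 0.44. Id1 had an SD of 0.90, and 92.6% of those genes were less variable. Id1 was the member measured with the least precision between pools, although it had 472 to 2697 reads per pool. The 472 reads were those of WT pool 3, with 470 in library 1 and 2 in library 2.

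Id4 was lower in the CKO pools. It stood at 72.2, 58.6 and 83.0 CPM in WT pools 1, 2 and 3 and at 46.0, 44.3 and 47.2 CPM in CKO pools 1, 2 and 3. Every CKO pool lay below every WT pool, and the CKO pools lay close together. The means were 71.3 ± 12.2 and 45.8 ± 1.44 CPM (SD, n = 3 pools each), 0.643 times the WT level in the fit. The log2 fold change of CKO over WT was -0.64 (SE 0.24, 95% interval -1.21 to -0.06, not adjusted for the number of genes). It did not pass after adjustment over all genes (edgeR quasi-likelihood test, Benjamini-Hochberg adjusted p = 0.790, unadjusted p = 0.0337, exact two-sided permutation p = 0.1, the smallest that 3 against 3 pools allow). Of all genes tested, 3.70% had a smaller p than Id4. A330033J07Rik, the antisense gene, stood at 6.90, 5.52 and 4.93 CPM in the WT pools and at 4.05, 6.80 and 6.57 CPM in the CKO pools. Its level was small beside that of Id4, and its log2 fold change was 0.01 (SE 0.52). Gm49291 is absent from the deposited counts. How reads in the shared exons were counted is not given, so these values do not show what the overlap adds to Id4.

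Id3, which acts with Id1 in brain vessels, stood at 270, 200.2 and 233 CPM in WT pools 1, 2 and 3. In CKO pools 1, 2 and 3 it stood at 178, 126 and 224 CPM. CKO pools 1 and 2 lay below every WT pool, and CKO pool 3 lay within the WT range. The means were 234 ± 34.9 and 176 ± 48.9 CPM (SD, n = 3 each), and the fit put the CKO level at 0.752 times that of WT (log2 -0.41, SE 0.27, interval -1.04 to 0.21; edgeR adjusted p = 0.800, exact permutation p = 0.2).

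Id2, the most abundant member, stood at 693, 733 and 693 CPM in the WT pools. In the CKO pools it stood at 544, 516 and 706 CPM. As for Id3, CKO pools 1 and 2 were below all WT pools and CKO pool 3 was not. The means were 706 ± 22.9 and 589 ± 103 CPM (SD, n = 3 each), and the fit put the CKO level at 0.834 times that of WT (log2 -0.26, SE 0.20, interval -0.72 to 0.20, edgeR adjusted p = 0.806, exact permutation p = 0.3). The interval spans 0.607 to 1.15 times the WT level.

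Id1, a rapid BMP target, stood at 53.3, 31.4 and 12.5 CPM in WT pools 1, 2 and 3. In the CKO pools it stood at 25.5, 12.9 and 33.0 CPM. The genotypes overlapped over most of their range, and WT pools 1 and 3 were the highest and the lowest of all. The means were 32.4 ± 20.4 and 23.8 ± 10.2 CPM (SD, n = 3 each), and the fit put the CKO level at 0.735 times that of WT (log2 -0.45, SE 0.59, interval -1.84 to 0.95, edgeR adjusted p = 0.867, exact permutation p = 0.8). Without WT pool 1 it was 0.14, and without WT pool 3 it was -0.83. The interval covers 0.279 to 1.93 times the WT level.

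**Figure D2:**
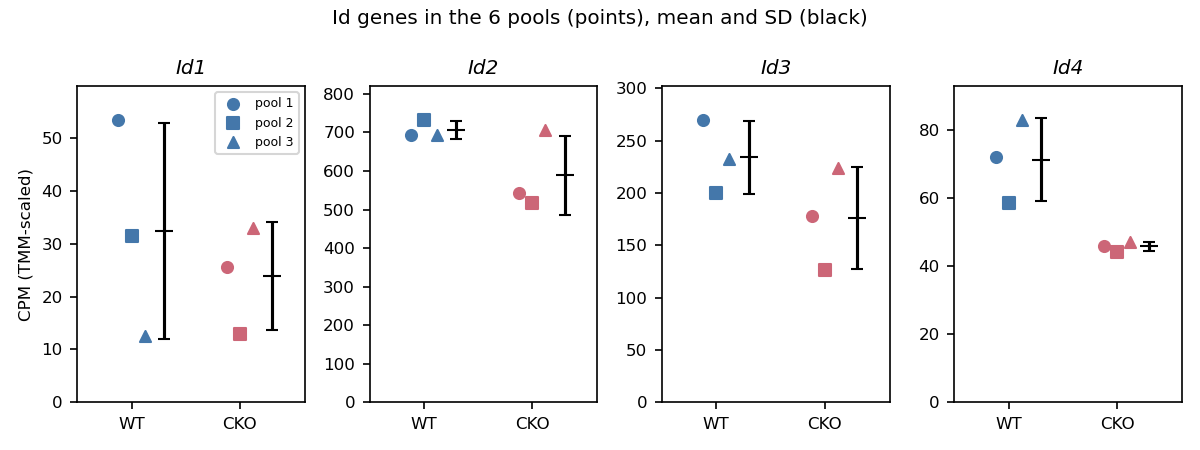
CPM of Id1 to Id4 (linear axes from 0) in the 3 WT pools (blue) and 3 CKO pools (red), with pool numbers as symbols and the mean ± SD in black. The CKO points of Id4 lie at 44.3 to 47.2 CPM, below the WT points at 58.6 to 83.0, and the points of the other 3 genes overlap between genotypes.

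All 4 members had a log2 fold change below 0, as had 52.8% of genes tested, and the members' median was -0.43 against -0.06 over all genes. None passed the adjusted threshold, and 0% of genes did (0 of 21477 in edgeR, 1269 at an unadjusted p under 0.05, 129 by DESeq2, 0.633% of the genes it tested, and 0 by limma-voom). DESeq2 gave Id4 an adjusted p of 0.384. One member of the 4, Id4, was lower at an unadjusted p under 0.05, where 2.9% of genes were and 5.91% passed in either direction. Id4 was under this unadjusted threshold in 8 of 18 alternative settings. It was over it in the remaining 10, among them library 2 alone (unadjusted p = 0.307), no filter (0.0622), limma-voom (0.0534) and the fits without WT pool 3 (0.0662) or without CKO pool 1, 2 or 3 (0.0942, 0.0960 and 0.0992, all edgeR except limma-voom). It was also the 1 member whose pools did not overlap downwards, where 8.17% of genes did not and 15.8% were apart in either direction.

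The libraries of a pool gave different pictures for Id1 and Id3. In library 1, Id1 stood at 77.0, 47.1 and 30.9 CPM in WT pools 1, 2 and 3 and at 22.0, 10.9 and 29.3 CPM in the CKO pools. In library 2 it stood at 30.5, 12.7 and 0.0992 CPM in the WT pools and at 27.8, 14.8 and 35.6 CPM in the CKO pools. Library 1 put every CKO pool below every WT pool, and library 2 did not. The Id1 value of WT pool 3 rested on 470 reads in library 1 and 2 reads in library 2, a ratio of 312 in CPM (95% exact interval of counting error 85.8 to 2580). With WT pool 3 taken from library 1 alone, Id1 was at -0.70 on the log2 scale (SE 0.50, edgeR adjusted p = 0.813). That setting, chosen after the data were seen, gave -0.92 for Id4, -0.60 for Id3 and -0.39 for Id2.

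Id3 behaved much like Id1. In library 1 it stood at 376, 253 and 324 CPM in the WT pools and at 162, 104 and 216 CPM in the CKO pools. In library 2 it stood at 165, 137 and 191 CPM in the WT pools and at 186, 147 and 227 CPM in the CKO pools. The genotypes were apart in library 1, at -0.96 on the log2 scale (SE 0.37, edgeR adjusted p = 0.758), and they overlapped in library 2, with 0.16 (SE 0.24, adjusted p = 0.984). For Id1 the fits gave -1.30 (SE 0.61) in library 1 and 0.79 (SE 1.38) in library 2.

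Id4 was lower in CKO in either library. It stood at 99.7, 70.8 and 126 CPM in library 1 of the WT pools and at 49.5, 52.6 and 52.9 CPM in library 1 of the CKO pools. In library 2 it stood at 44.7, 44.03 and 60.0 CPM in the WT pools and at 41.1, 38.2 and 41.4 CPM in the CKO pools. The genotypes did not overlap in either library, though the gap in library 2 was narrow, between 41.4 and 44.03 CPM. The log2 fold change was -0.92 (SE 0.39, edgeR adjusted p = 0.758) in library 1 and -0.32 (SE 0.29, adjusted p = 0.984) in library 2.

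Id2 ranged from 603 to 953 CPM in library 1 and from 437 to 639.5 CPM in library 2, with overlapping genotypes in each. Its log2 fold change was -0.31 (SE 0.29) and -0.20 (SE 0.20). Id2 and Id4 thus had a value below 0 in either library, as had 33.3% of genes fitted in each. In library 1 the pools of 3 of the 4 members were apart and lower in CKO, where 8.83% of genes were and 17.3% were apart in either direction. In library 2 this held for 1 member, where 4.59% of genes were and 10.8% in either direction. For Id4 it held in library 1 and in library 2, as for 0.859% of genes. The libraries were made from the same pools, so library 2 is not an independent repeat of library 1.

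**Figure D3:**
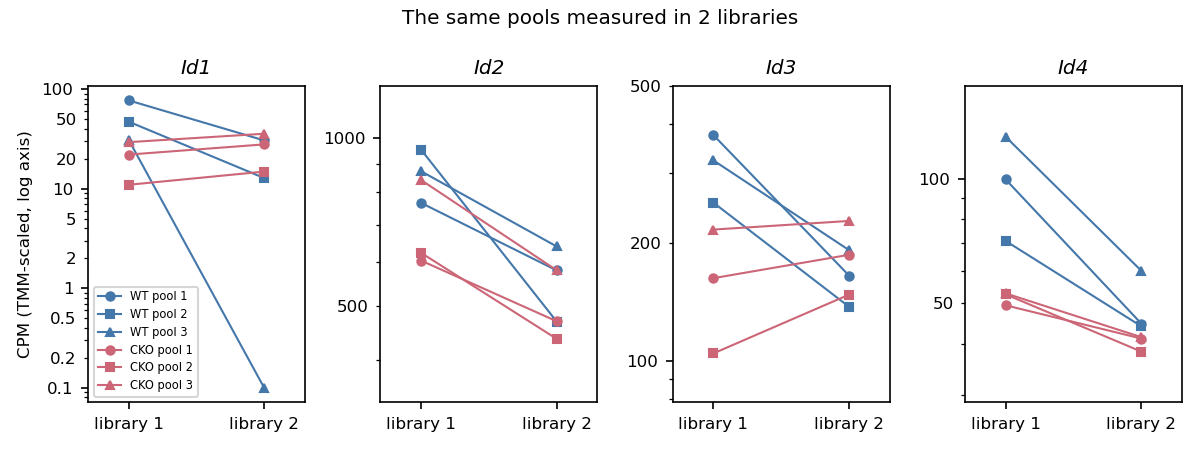
CPM (log axes) of each Id gene in library 1 and library 2 of the same pool, joined by a line, with WT pools in blue and CKO pools in red. Lines of Id2 and Id4 fall from library 1 to library 2 in 6 of 6 pools, while those of Id1 and Id3 fall in the 3 WT pools and rise in the 3 CKO pools.

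For some members the difference between libraries was itself unlike in the WT and the CKO pools. With 3 pools each, this describes these pools and does not establish a dependence on genotype. Library 1 was higher than library 2 in 3 of 3 WT pools and in 0 of 3 CKO pools for Id1, and likewise for Id3, a reversal of sign seen for 2.43% of genes. For Id2 and Id4 it was higher in 6 of 6 pools. The log2 ratio of library 1 over library 2 for Id3 was 0.94 ± 0.22 in WT and -0.26 ± 0.22 in CKO pools (SD, n = 3 each, exact permutation p = 0.1). For Id4 it was 0.97 ± 0.25 and 0.36 ± 0.10 (n = 3 each, exact permutation p = 0.1), and for Id2 it was 0.62 ± 0.35 and 0.47 ± 0.10 (n = 3 each, exact permutation p = 0.8). This ratio was apart between the genotypes for 3 of the 4 members, where 7.68% of genes were apart and lower in CKO and 14% in either direction. The median size of the difference between the libraries of a pool was 0.89 log2 units for Id1, 0.48 for Id2 and 0.63 for Id3, above the size of their genotype differences. For Id4 it was 0.57, below the size of its genotype difference (0.64), but this did not hold in every pool. In WT pools 1, 2 and 3 the Id4 difference between libraries was 1.16, 0.69 and 1.08, each above 0.64. In CKO pools 1, 2 and 3 it was 0.27, 0.46 and 0.35. What differed in the making of the libraries is not given in the sources used here.

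**Figure D4:**
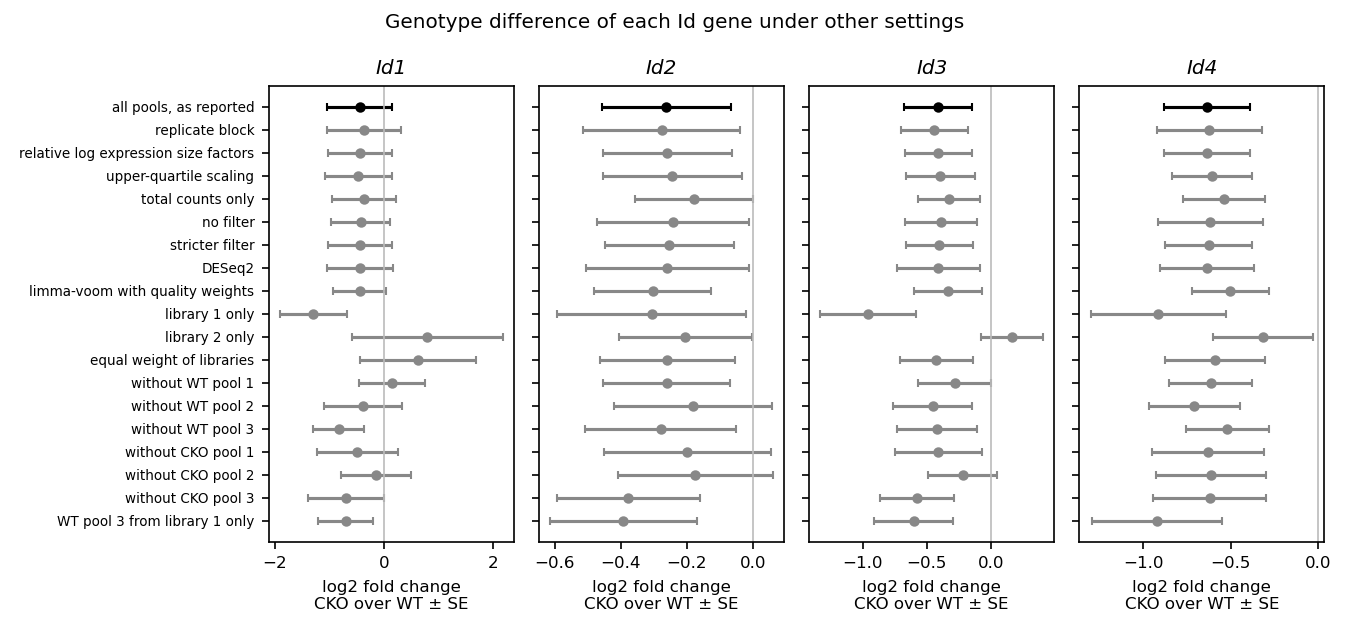
Log2 fold change of CKO over WT (± SE) for each Id gene with all pools (black) and under 18 other settings (grey), each panel on its own linear axis. The estimates of Id4 and Id2 lie below 0 in every setting shown, and those of Id3 in all but library 2 alone. The estimate of Id1 is above 0 in 3 settings, and its SE bar also reaches past 0 in others, among them all pools.

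The members varied together over the 12 libraries to unequal degrees. Pearson's r of log2 CPM was 0.77 for Id2 with Id4, 0.75 for Id3 with Id4 and 0.65 for Id2 with Id3. Id1 with Id3 had an r of 0.335, against 0.899 when library 2 of WT pool 3 was left out. Without that library Id1 with Id4 had an r of 0.54 and with Id2 an r of 0.60. These values describe 12 libraries of which pairs share a pool, and libraries also share differences in composition. Among 6997 other genes, the 3 most like Id4 over the 12 libraries were Gsta4 (r 0.96), Tmem205 (0.95) and Zfp414 (0.95). Those most like Id2 were Tmem59 (0.96), Laptm4a (0.96) and Tmem9b (0.94), and those most like Id3 were Rnf5 (0.92), Map7d1 (0.91) and Chchd10 (0.90). For Id1 they were Dnajc4 (0.98), Timm17b (0.97) and Hddc2 (0.96), a likeness that rested on library 2 of WT pool 3. Without it these genes ranked 100, 93 and 224 for Id1, at an r of 0.81, 0.81 and 0.75.

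The E proteins that Id proteins bind had no member past the test. Tcf4, an E protein with roles in neuronal differentiation, stood at 387, 684 and 786 CPM in the WT pools and at 651, 679 and 733 CPM in the CKO pools. Its log2 fold change was 0.15 (SE 0.28), and that of Tcf3 and Tcf12 was 0.29 (SE 0.37) and 0.36 (SE 0.32). All 3 values were above 0, as were 10140 of the 21477 genes tested, and none of the 3 had an unadjusted p under 0.05 in edgeR. Without WT pool 1, Tcf4 was at -0.08. Without WT pool 3, Tcf3 was at 0.056 and Tcf12 at 0.18, and Tcf12 was at 0.15 without CKO pool 1.

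Among the proneural and neuronal bHLH factors, 11 of 12 could be tested, 6 below and 5 above 0, with a median of -0.03 and 0 past the test at an adjusted or unadjusted threshold (edgeR). Neurod1, which acts in new granule neurons, was at -0.65 (SE 0.48) and, without WT pool 3, at -0.23. Olig1 and Olig2, bHLH factors of the oligodendrocyte lineage, were at -0.03 (SE 0.42) and -0.19 (SE 0.48). Olig1 was at 0.27 without WT pool 3 and 0.29 without CKO pool 3, and Olig2 at 0.19 without WT pool 1 and 0.13 without CKO pool 3. Nhlh1 and Neurog1, the list members with the smallest p, were near the detection limit, at 0 to 51 and 0 to 35 reads per WT pool and 74 to 157 and 64 to 111 reads per CKO pool.

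Other helix-loop-helix repressors split evenly, with 4 below and 4 above 0 and 1 of 8 higher at an unadjusted p under 0.05, where 3.01% of genes were. That gene was Hey2, a Notch effector, at 2.57, 1.30 and 0.689 CPM in the WT pools and at 7.39, 11.2 and 3.95 CPM in the CKO pools (4.92 times the WT level in the fit, log2 SE 0.75, edgeR adjusted p = 0.790). Hes5 was at 0.01 (SE 0.29), Hes1 at -0.26 (SE 0.38), Hey1 at -0.39 (SE 0.33) and Bhlhe41 at 0.49 (SE 0.26). Bhlhe41 was at 0.74 in library 1, 0.23 in library 2 and 0.33 without CKO pool 2. Hes5 was at -0.23 and Hes1 at 0.01 without WT pool 1, and Hey1 was at -0.16 without WT pool 3. The levels of Hes5, which drove the Cre, were 234, 408 and 495 CPM in the WT pools and 386, 399.9 and 361 CPM in the CKO pools.

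BMP signalling, which induces Id genes, was represented by ligands and antagonists and by receptors and Smads. Of 12 tested ligands and antagonists, 9 were above 0 with a median of 0.34, and at an unadjusted p under 0.05 there were 2 higher and 1 lower, against 3.01% and 2.9% of all genes. Twsg1, a secreted BMP-binding protein, stood at 28.9, 28.7 and 23.3 CPM in the WT pools and at 50.2, 44.4 and 41.3 CPM in the CKO pools. Nbl1, a secreted BMP antagonist, stood at 11.8, 12.2 and 21.6 CPM in the WT pools and at 28.6, 41.5 and 26.8 CPM in the CKO pools. Neither gene overlapped between genotypes, as 7.67% of genes did not upwards, and neither passed after adjustment (log2 fold changes 0.75 and 1.09, edgeR adjusted p = 0.790). The value of Twsg1 was 0.30 in library 1. The lower gene, named after its value was seen, was Bmp1, a metalloprotease despite its name, at 30.9 to 86.5 CPM in WT and 21.8 to 26.9 CPM in CKO pools.

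Of 16 tested receptors and Smads, 10 were above 0 with a median of 0.39, with 2 higher and 1 lower at an unadjusted p under 0.05, against the same 3.01% and 2.9% of all genes. Bambi, a BMP pseudoreceptor, stood at 16.3, 19.8 and 68.7 CPM in the WT pools and at 9.58, 4.85 and 9.54 CPM in the CKO pools. Its log2 fold change was -2.13 (SE 0.66), and it was -1.18 without WT pool 3. Bmpr1b, a type I receptor, stood at 48.0, 80.8 and 54.6 CPM in the WT pools and at 113, 91.5 and 95.3 CPM in the CKO pools. Its log2 fold change was 0.71 (SE 0.27), made up of 0.10 in library 1 and 0.85 in library 2. Bmpr1a, the other main type I receptor, and the signal-carrying Smad1 and Smad5 were at -0.13 (SE 0.33), -0.18 (SE 0.43) and 0.74 (SE 0.78). Without WT pool 3, Bmpr1a was at 0.19 and Smad1 at 0.09, and Smad5 was at 2.04 without WT pool 2 and at 0.25 without WT pool 3. The other higher gene, also named after its value was seen, was the inhibitory Smad6, which was nearly undetected at 0.0877 to 3.72 CPM.

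Of 14 Notch pathway genes tested, 8 were above 0 (median 0.28) and 0 had an unadjusted p under 0.05. Notch2 itself had a log2 fold change of -0.86 (SE 0.45), which was -0.29 without WT pool 3, and Jag1, a ligand, had 0.65 (SE 0.40), which was 1.51 in library 1 and 0.07 in library 2.

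Among 7 genes of Id protein turnover and ubiquitin ligases, 5 were above 0 with a median of 0.40. Usp1, a deubiquitinase that stabilises Id proteins, stood at 4.89, 6.58 and 4.19 CPM in the WT pools. In the CKO pools it stood at 19.3, 11.8 and 8.73 CPM, above every WT pool. Its log2 fold change was 1.35 (SE 0.51, edgeR adjusted p = 0.790, unadjusted p = 0.0329), and it was 1.37 in each of the libraries. Huwe1, a large ubiquitin ligase, stood at 40.6, 62.7 and 65.6 CPM in the WT pools and at 74.0, 103 and 69.7 CPM in the CKO pools, also without overlap (0.55, SE 0.29). Its value was 0.94 in library 1 and 0.29 in library 2, 0.35 without CKO pool 2. Cops6, a subunit of the COP9 signalosome, was at -0.48 (SE 0.26), and at -0.20 without WT pool 1. It was apart downwards, at 241, 149 and 149 CPM in the WT pools and 139, 116 and 131 CPM in the CKO pools. Among all genes 7.67% were apart upwards and 8.17% downwards, and 3.01% were higher at an unadjusted p under 0.05 (edgeR). Protein levels were not measured in these data.

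The cell cycle genes linked to Id or E proteins had 12 of 16 tested members above 0 with a median of 0.36, and 2 were higher at an unadjusted p under 0.05, where 3.01% of all genes were. These were Ccne1, the cyclin of S phase entry, at 2.32 (SE 0.62), and the proliferation marker Mki67, at 1.54 (SE 0.51). The adjusted p of Ccne1 was 0.790 in edgeR and 0.0103 in DESeq2. It was at 0.55 in library 1 and 3.59 in library 2. Genes of quiescent stem cells had 9 of 15 below 0 (median -0.14) and 0 at an unadjusted p under 0.05. In that list Gfap, an intermediate filament of radial glia and astrocytes, was at 0.52 (SE 0.28) and the metallothionein Mt3 at -0.44 (SE 0.26). Without CKO pool 3 Gfap was at 0.22, and without WT pool 1 Mt3 was at -0.22. In edgeR 0 members of the 9 pathway lists passed the adjusted threshold. Of the 30 genes followed through the alternative settings besides the members, DESeq2 called Ccne1 alone. Among all genes it tested, DESeq2 called 0.633%.

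**Figure D5:**
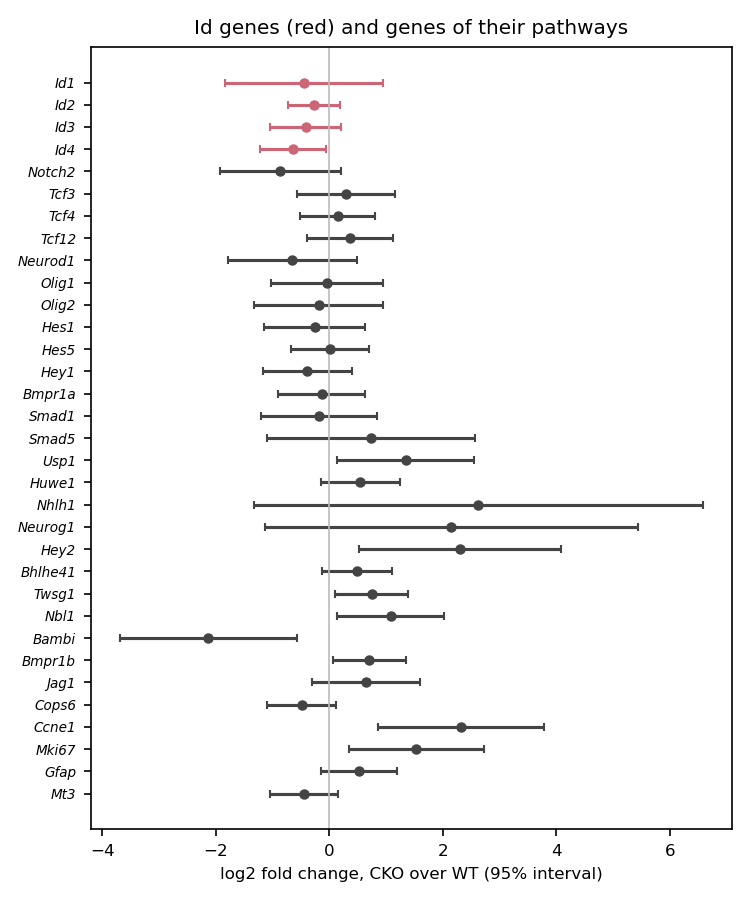
Log2 fold change of CKO over WT with 95% intervals (linear axis, not adjusted for the number of genes) for Id1 to Id4 (red), Notch2 and the pathway genes named in the text (dark grey). The interval of Id4 ends just below 0 at -0.06, and those of Id1, Id2 and Id3 span 0.

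Markers of other cell types that express Id genes were uneven between pools. Of 14 endothelial markers 12 could be tested, 10 of them below 0 (median log2 fold change -1.02), and the CPM of all 14 summed to 80.3 to 247 in WT and to 54.3 to 96.7 in CKO pools. WT pool 1, the pool with the highest Id1 and Id3, had the highest endothelial sum, and the other 5 pools had at most 96.7 CPM. Cdh5, Tie1, Emcn, Ly6c1 and Esam were at 0 reads in at least 1 pool. In library 1, endothelial markers summed to 262, 75.7 and 58.3 CPM in the WT pools and to 61.3, 78.5 and 83.7 CPM in the CKO pools. These ranges overlapped between the genotypes. Mural cell markers summed to 39.4 to 116 CPM in WT and to 58.5 to 106 CPM in CKO pools. Oligodendrocyte precursor markers summed to 2150 to 3287 CPM in WT and to 1321 to 3841 CPM in CKO pools. In each pool their sum was higher in library 2 than in library 1. In library 1 it was 1520 to 1755 CPM in WT and 887 to 2650 CPM in CKO pools. In library 2 it was 2415 to 4833 CPM in WT and 1664 to 4798 CPM in CKO pools. Red blood cell genes were at 392 CPM in WT pool 1 and at 14.3 to 118 CPM in the others, and excitatory neuron markers at 662 CPM in that pool and at 193 to 348 CPM in the others. Without WT pool 1 the log2 fold change of Id3 was -0.28 and that of Id4 -0.62. Microglial markers were highest in CKO pool 3 (777 CPM against 284 to 376), and that pool also had the highest astrocyte sum and the highest CKO values of all 4 Id genes. Without CKO pool 3 the values were -0.69 for Id1, -0.38 for Id2, -0.58 for Id3 and -0.62 for Id4. Without CKO pool 2, the lowest CKO pool for each member, they were -0.15, -0.17, -0.22 and -0.61 in the same order. The part of these cell types in the differences of all 4 Id genes was not tested.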

How the data were processed

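Sorted-cell RNA was made into Smart-Seq2 cDNA and Nextera XT libraries, per the labels' protocols. The deposited tables hold raw read counts per gene symbol, 1 for each of 24 runs. The authors used Bowtie2, HTSeq and GRCm38, per the submitters' processing notes, and the versions, annotation and counting settings are not given in the sources used here. The 5 summary lines that name no gene were kept out (reads outside genes 16.0% to 35.3% of a pool's reads, unaligned 11.2% to 21.7%, ambiguous 2.51% to 3.43%). Lanes of a library agreed within sampling noise (chi-square per degree of freedom 0.986 to 1.01). The libraries of a pool did not (70.7 to 351). The 4 runs of a pool were summed all the same.

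Genes were filtered by filterByExpr, scaled by TMM and tested with edgeR 4.0.16 (robust quasi-likelihood) in R 4.3.3, CKO against WT, with Benjamini-Hochberg adjustment over 21477 genes at 0.05. Alternatives used DESeq2 1.42.0, limma 3.58.1, other scalings and filters, single libraries, a replicate block and leaving out each pool. The fits were checked on simulated data. Likeness used Pearson's r of log2 CPM (prior count 2) over 12 libraries among genes at a mean log2 CPM of at least 4. Exon lengths and positions are from GENCODE M21. The members, lists and alternatives were chosen with earlier results of these data known, so no list is independent evidence. Named genes are the members, fixed pathway genes, the 2 smallest p of each list, genes overlapping a member and the 3 most alike. One gene of the proneural list was left out of the list and is not reported here.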

Additional observations from a re-analysis of the deposited data

Results flagged for a closer look

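For Id1 and Id3, library 1 was higher than library 2 in every WT pool and lower in every CKO pool. The log2 ratio of library 1 over library 2 in WT pools minus that in CKO pools was 3.89 for Id1 and 1.20 for Id3 (n = 3 pools each, exact permutation p = 0.1 for each, the smallest that this design allows). The value of Id1 includes the 2 reads in library 2 of WT pool 3 and depends on the prior count of 2. Of 18267 genes, 2.43% had ratios of opposite sign in the WT and the CKO pools in this way.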

How the results depend on the processing

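Id4 and Id2 were below 0 in all 18 alternatives and Id3 in 17, and no alternative gave a member an adjusted p under 0.05 (0.384 to 0.993). Id1 turned to 0.79 with library 2 only and to 0.62 with equal weight of libraries, and Id3 to 0.16 with library 2 only. Leaving out a pool gave -0.83 to 0.14 for Id1, -0.38 to -0.17 for Id2, -0.58 to -0.22 for Id3 and -0.71 to -0.52 for Id4. The genes called numbered 129 with DESeq2 and 0 in the others. With the replicate block, the pool number beside genotype, the members were at -0.37, -0.28, -0.44 and -0.62 for Id1 to Id4, with 0 genes called. Same-numbered pools did not deviate together (r of 0.02, -0.01 and -0.02), and differently numbered pools had an r of -0.052 to 0.044. Such values cannot tell whether same-numbered pools were prepared together. Library 2 only turned Tcf4 to -0.048, Hes1 to 0.10, Hes5 to -0.083 and Bmpr1a to 0.011, and library 1 only turned Hey1 to 0.32 and A330033J07Rik to -0.61. With WT pool 3 from library 1 only, Tcf12 was at -0.065, Olig1 at 0.39, Hes5 at -0.10, Hey1 at 0.094 and A330033J07Rik at -0.43. Olig1 turned to 0.0041 by upper-quartile scaling and to 0.081 by total counts. The limma-voom fit gave Olig1 0.082, Bmpr1a 0.074, Smad1 0.14 and A330033J07Rik -0.13. Equal weight of libraries gave A330033J07Rik -0.031, and the replicate block -0.014. Leaving out a pool gave -0.083 to 0.36 for Tcf4, -0.43 to 0.29 for Olig1, -0.52 to 0.19 for Olig2, -0.43 to 0.0057 for Hes1, -0.23 to 0.25 for Hes5, -0.27 to 0.19 for Bmpr1a, -0.40 to 0.093 for Smad1 and -0.12 to 0.22 for A330033J07Rik. The cause of these turns was not tested.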
